A study of Mus musculus with 15 samples.

Results

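The extracellular matrix genes described here are 39 genes for matrix glycoproteins, proteoglycans, elastic fiber proteins and laminins, among 56748 gene identifiers measured in regenerating tibialis anterior (TA) muscle. They were taken by gene name from a list, with no cut on their levels, and each name matched 1 identifier. By role they were 11 adhesive and matricellular glycoproteins, 8 proteoglycans, 10 elastic fiber proteins and 10 basement membrane proteins. The first 3 roles make up 29 genes of the interstitial matrix. Cardiotoxin (CTX), a snake venom toxin that destroys muscle fibers and spares much of the surrounding scaffold, was given by intramuscular injection into the TA of male C57BL/6 mice 8 weeks old, as 50 µL of a 0.1 mg/mL solution in saline with the analgesic meloxicam. RNA was taken at the Proliferation Stage (day 4 after CTX, 4 libraries), the Differentiation Stage (day 7, 4 libraries), the Maturation Stage (day 14, 4 libraries) and from Uninjected muscle (3 libraries). Animals of all groups, Uninjected included, were also given heavy water to label newly made proteins. The study's descriptions speak both of mice that never had CTX and of an uninjected TA in injected mice, and the labels do not fully say which of these the Uninjected libraries are. RNA came, by the study's account of its isolation, from muscle fibers freed by enzymes and by hand, with the cells that stay attached to them. Elsewhere the study speaks of bulk sequencing of injured tissue, and the sample titles name only TA muscle. Whether fibers or whole tissue were used for RNA is therefore not settled here. Under either reading the libraries are mixtures of muscle and non-muscle RNA. The study's methods describe magnetic depletion of CD45+ (blood-derived) cells for the protein and DNA measurements, and the sources do not say whether the material used for RNA was depleted too. In such mixtures, fewer cells of a type and less RNA per cell cannot be told apart. Each library was treated as 1 animal.

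Interstitial matrix fills the space between muscle fibers. It is made mostly by fibroblasts and fibro-adipogenic progenitors, and holds adhesive glycoproteins such as fibronectin, small leucine-rich proteoglycans that bind collagen fibrils, and microfibrils and elastin. The basement membrane is a thin sheet against each fiber, in which laminin trimers and type IV collagen are linked by nidogens and by the heparan sulfate proteoglycans perlecan and agrin. In muscle the laminins bind dystroglycan and integrins on the fiber surface, and the sheet that remains after a fiber dies guides the fiber that replaces it. Blood vessels, nerves and muscle fibers each carry basement membranes, with different laminin chains.

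Values were FPKM as deposited by the authors, fragments scaled by transcript length and by a factor for each library. That factor was not the plain total of fragments in genes. Such fragments were 0.523 (Proliferation Stage replicate 1) to 1.16 (Uninjected replicate 2) times the factor. Fragments assigned to genes numbered 5198290 to 7208693 at the Proliferation Stage, 1471307 to 6292743 at the Differentiation Stage, 1479282 to 5544489 at the Maturation Stage and 2302617 to 4455081 in Uninjected libraries, so the Differentiation and Maturation groups hold the shallowest libraries. Summed FPKM of 8 macrophage markers was 1094 to 2703 at the Proliferation Stage, 68.8 to 998 at the Differentiation Stage and 17.6 to 54.5 at the Maturation Stage, against 5.20 to 16.9 in Uninjected libraries. Whether depletion of CD45+ cells lowered these levels was not tested. The 5 markers of myofibers, the labelled tissue, had a lowest sum of 4338 FPKM over all libraries, found in Proliferation Stage replicate 1. Sums of 8 fibro-adipogenic progenitor markers were 170 to 315, 138 to 262 and 144 to 185 FPKM at the 3 stages in order. Uninjected libraries had 150 to 229 FPKM, so each stage overlapped them. By the test described below, 4 of these 8 were higher at the Proliferation Stage. At the Differentiation Stage 3 of 7 tested were higher and 1 lower (20.1% and 17.0% of all tested genes were higher at these stages). Of the 9 marker lists for muscle, satellite cells, fibro-adipogenic progenitors, tendon, macrophages, endothelium, mural cells, Schwann cells and leukocytes, none had a marker at 0 in all libraries of a group.

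Several libraries stood apart from their groups in the matrix genes. Differentiation Stage replicate 1 had the lowest level of its stage in 37 of the 39 genes, with a macrophage sum of 68.8 FPKM against 277 to 998 in the other 3 libraries. Proliferation Stage replicate 2 was lowest in 32 of 39 genes, and its macrophage sum of 1094 FPKM was the lowest of its stage. Both of these libraries also had the highest myofiber marker sum of their stage. It was 52452 FPKM in Differentiation Stage replicate 1, against 25140 to 39380 FPKM in the others of that stage. In Proliferation Stage replicate 2 it was 42663 FPKM, against 4338 to 27579 FPKM in the others. Uninjected libraries had 43839 to 68975 FPKM. Differentiation Stage replicate 2 was highest in 23 genes and had a summed level of 5 tendon markers of 141 FPKM, where the other 3 libraries of the stage had 7.79 to 42.7 FPKM. Among Uninjected libraries, replicate 1 was highest in 35 of 39 genes. Results that rest on these libraries are given with and without them, and the part of macrophage, tendon and myofiber RNA in them was not tested.

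**Figure D1:**
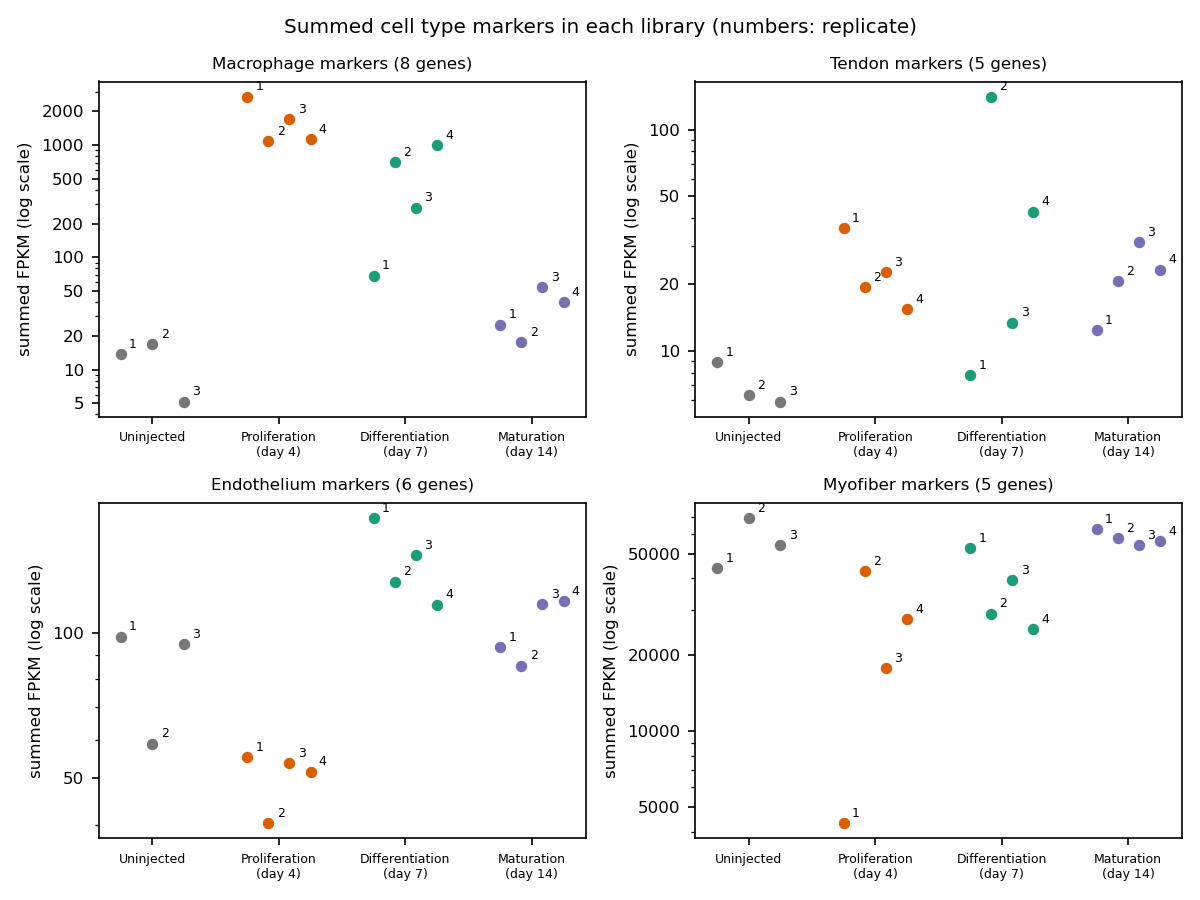
Summed FPKM (log axis) of marker genes for macrophages, tendon, endothelium and myofibers in each library, with the replicate number beside each point. Differentiation Stage replicate 1 lies at 68.8 FPKM for macrophage markers and replicate 2 at 141 FPKM for tendon markers, and endothelial sums are 114 to 172 FPKM at the Differentiation Stage against 58.9 to 98.1 FPKM in Uninjected libraries.

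Differences were tested with limma, a linear model fitted to all genes at once, on log2(FPKM + 0.5). A gene was called higher or lower when its p-value, adjusted over all tested genes with the Benjamini-Hochberg method, was below 0.05. Fold changes from this scale understate the change of genes near or below 0.5 FPKM. At the Proliferation Stage 22 of the 39 matrix genes were higher than in Uninjected libraries and 1, Fmod, was lower, where 20.1% of all 13166 tested genes were higher and 9.05% lower. Their median log2 fold change was 1.78, against 0.05 over all genes. At the Differentiation Stage 20 of 38 tested matrix genes were higher and none was lower (17.0% and 12.5% of all tested genes), with a median of 1.59 against 0.06 over all genes. At the Maturation Stage none of 37 was called higher or lower, where limma called 0.0245% of all tested genes higher and 0.0% lower, and 16 of the 37 had an unadjusted p below 0.05, as did 13.2% of all tested genes. The equal-variance test on FPKM that the study's methods name, adjusted over all genes in the same way, called 0 matrix genes at the Proliferation Stage, 2 (Agrn and Lamc1) at the Differentiation Stage and 0 at the Maturation Stage. The share of all genes that this test called is not given here, so these counts are not a result about the matrix genes. The study's own counts of changed genes used a cut on the p-value, with no adjustment named there. The 3 stages share the Uninjected libraries, so their calls are not independent of each other.

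The promoters of 3 genes that were higher at both early stages are shown because their levels lead the account that follows. Each is the 250 bases before an annotated RefSeq start on mouse build GRCm38.p6, 5′ to 3′ on the gene's strand, with the part that matched a motif in capitals. Postn is on the plus strand of chromosome 3 (chr3:54360857-54361106), Bgn on the plus strand of chromosome X (chrX:73483351-73483600) and Cilp on the plus strand of chromosome 9 (chr9:65264930-65265179).
Postn: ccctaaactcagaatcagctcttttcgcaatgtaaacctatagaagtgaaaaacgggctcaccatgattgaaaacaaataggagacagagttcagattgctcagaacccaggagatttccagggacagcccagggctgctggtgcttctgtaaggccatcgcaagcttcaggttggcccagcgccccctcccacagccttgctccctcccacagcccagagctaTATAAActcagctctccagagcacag
Bgn: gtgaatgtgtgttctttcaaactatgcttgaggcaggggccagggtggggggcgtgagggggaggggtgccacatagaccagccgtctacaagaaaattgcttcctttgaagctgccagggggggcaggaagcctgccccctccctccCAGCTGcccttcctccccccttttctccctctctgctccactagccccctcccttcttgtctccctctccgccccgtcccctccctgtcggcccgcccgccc
Cilp: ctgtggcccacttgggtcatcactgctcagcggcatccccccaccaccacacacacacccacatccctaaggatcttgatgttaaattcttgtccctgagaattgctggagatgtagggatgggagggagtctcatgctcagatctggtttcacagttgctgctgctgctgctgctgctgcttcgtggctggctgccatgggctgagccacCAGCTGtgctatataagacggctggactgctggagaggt
In the Postn window the capitals mark TATAAA, whose first base lies 26 bases before the start. A second RefSeq start of Postn has a window (chr3:54359017-54359266) that held none of the 3 motifs searched. In the Bgn and Cilp windows they mark the E-box CAGCTG, at 102 and 39 bases before the start. RefSeq windows were at hand for 28 of the 39 genes (36 windows, since some genes have several starts). On either strand, CAGCTG stood in 6 of the 36 windows (16.7%) and in 13% of 32851 promoters of the same length, and TATAAA in 6 of 36 and 12.4%. The AP-1 motif TGANTCA stood in 1 of the 36 windows, that of Tnxb, and in 6.75% of all promoters. A match is a run of letters and not a measured binding site.

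Of the 39 genes, the adhesive glycoprotein Postn had the largest log2 fold change at both early stages. At the Proliferation Stage 8 of these 11 genes were higher than in Uninjected libraries (Postn, Fn1, Sparc, Tnc, Comp, Cilp, Thbs2 and Thbs3), and at the Differentiation Stage 4 were (Postn, Sparc, Cilp and Thbs1). Their median log2 fold changes were 2.43 and 2.53 at these stages and 1.01 at the Maturation Stage.

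Postn encodes periostin, a secreted adhesive protein of fibroblasts that binds collagen and integrins. Postn had 138, 18.4, 123 and 117 FPKM at the Proliferation Stage, against 1.23, 0.174 and 0.470 FPKM in Uninjected libraries. The Uninjected values rest on 26, 3 and 16 fragments, so they are imprecise, and the groups did not overlap. The log2 fold change was 6.23 ± 0.70 (SE, adjusted p = 0.00073 by limma, 75.3-fold on this scale). The exact permutation test of mean FPKM gave p = 0.0571, 2-sided over 35 splits, where 0.0286 is the smallest p that 4 against 3 libraries allow. Postn had 3.41, 151, 46.4 and 241 FPKM at the Differentiation Stage and 2.46, 1.75, 8.73 and 4.31 FPKM at the Maturation Stage. All 12 injected libraries were therefore above the 3 Uninjected ones, but Differentiation Stage replicate 1, at 3.41 FPKM, lay within the Maturation Stage range. The log2 fold change was 5.61 ± 1.24 at the Differentiation Stage (adjusted p = 0.0128 by limma) and 1.99 ± 0.50 at the Maturation Stage (adjusted p = 0.174). Without replicate 1, the Differentiation Stage difference was 6.84 ± 0.61.

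Cilp encodes cartilage intermediate layer protein, a secreted matrix protein known from cartilage and injured heart that restrains TGF-β signalling. Cilp had 45.6, 15.5, 58.0 and 79.9 FPKM at the Proliferation Stage, against 5.90, 1.43 and 1.02 FPKM in Uninjected libraries. Cilp had 69.7, 141, 61.2 and 81.8 FPKM at the Differentiation Stage and 14.2, 8.69, 27.8 and 13.9 FPKM at the Maturation Stage. All 12 injected libraries exceeded all Uninjected ones. Cilp was high in Differentiation Stage replicate 1 too, the library that was lowest of its stage for 37 genes. Its log2 fold change was 4.02 ± 0.64 at the Proliferation Stage (adjusted p = 0.00347, limma), 4.99 ± 0.50 at the Differentiation Stage (adjusted p = 0.000864) and 2.53 ± 0.53 at the Maturation Stage (adjusted p = 0.138).

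Tnc encodes tenascin C, a large hexameric glycoprotein that appears transiently in embryonic and injured connective tissue. Tnc had 51.4, 1.2, 17.7 and 19.7 FPKM at the Proliferation Stage, against 0.741, 0.260 and 0.131 FPKM in Uninjected libraries. Proliferation Stage replicate 2 was far below the other libraries of its stage, and none overlapped the Uninjected values. The log2 fold change was 4.00 ± 0.99 (adjusted p = 0.0212, limma), and it passed the threshold in 3 of the 7 fits that each left out 1 library. At the Differentiation Stage Tnc had 0.607, 16, 3.22 and 44.8 FPKM, which overlapped the Uninjected range through replicate 1 (log2 fold change 3.15 ± 1.10, adjusted p = 0.0609). Without that library the log2 fold change was 4.06 ± 0.81 (adjusted p = 0.00748). Maturation Stage libraries had 0.447, 0.280, 0.691 and 1.36 FPKM, a range that overlapped the Uninjected one.

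Sparc, which encodes a collagen-binding matricellular protein, had the highest mean level of the 39 genes in each of the 4 groups. It averaged 346 ± 137 FPKM at the Proliferation Stage, 388 ± 184 FPKM at the Differentiation Stage and 174 ± 36.4 FPKM at the Maturation Stage (SD, n = 4 each), against 63.6 ± 25.8 FPKM in Uninjected libraries (SD, n = 3). The first 2 differences passed the test (log2 fold changes 2.42 ± 0.44 and 2.53 ± 0.45). At the Maturation Stage Sparc had 125, 168, 204 and 199 FPKM, against 92.0, 57.2 and 41.6 FPKM in Uninjected libraries, groups that did not overlap, and the log2 fold change of 1.5 ± 0.28 had an unadjusted p of 0.000493 but an adjusted p of 0.136 (limma). Fn1, for fibronectin, averaged 39.6 ± 23.7 FPKM at the Proliferation Stage (SD, n = 4) against 2.64 ± 1.71 FPKM in Uninjected libraries (SD, n = 3; log2 fold change 3.6 ± 0.60, adjusted p = 0.00419, limma). At the Differentiation Stage the Fn1 difference of 3.32 ± 1.09 had an adjusted p of 0.0504, and 0.0029 without replicate 1.

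The thrombospondins are a family of calcium-binding matricellular glycoproteins. Thbs2 (log2 fold change 2.86 ± 0.55) and Thbs3 (2.18 ± 0.45) were higher at the Proliferation Stage, and so was Comp (1.39 ± 0.33), the cartilage oligomeric matrix protein of tendon and cartilage. The Comp call held in 4 of 7 fits that left out 1 library and was lost in 1 fit of all 15 libraries. Thbs1 was called at the Differentiation Stage only (2.70 ± 0.63, adjusted p = 0.0154 by limma), with 2.43 ± 0.84 and an adjusted p of 0.0602 at the Proliferation Stage. Thbs4, a thrombospondin of tendon and muscle and the third most abundant matrix gene in Uninjected libraries by mean FPKM, was called at no stage (log2 fold changes of 1.19, 1.15 and 1.16). Without Proliferation Stage replicate 2, and without Differentiation Stage replicate 1, Thbs4 did pass (adjusted p = 0.0186 and 0.0309). Tnxb, for the collagen-associated tenascin X, averaged 2.77 ± 2.11, 3.77 ± 2.20 and 2.45 ± 0.534 FPKM at the 3 stages in order (SD, n = 4 each) against 2.52 ± 0.899 FPKM in Uninjected libraries (SD, n = 3), with overlap at each stage.

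**Figure D2:**
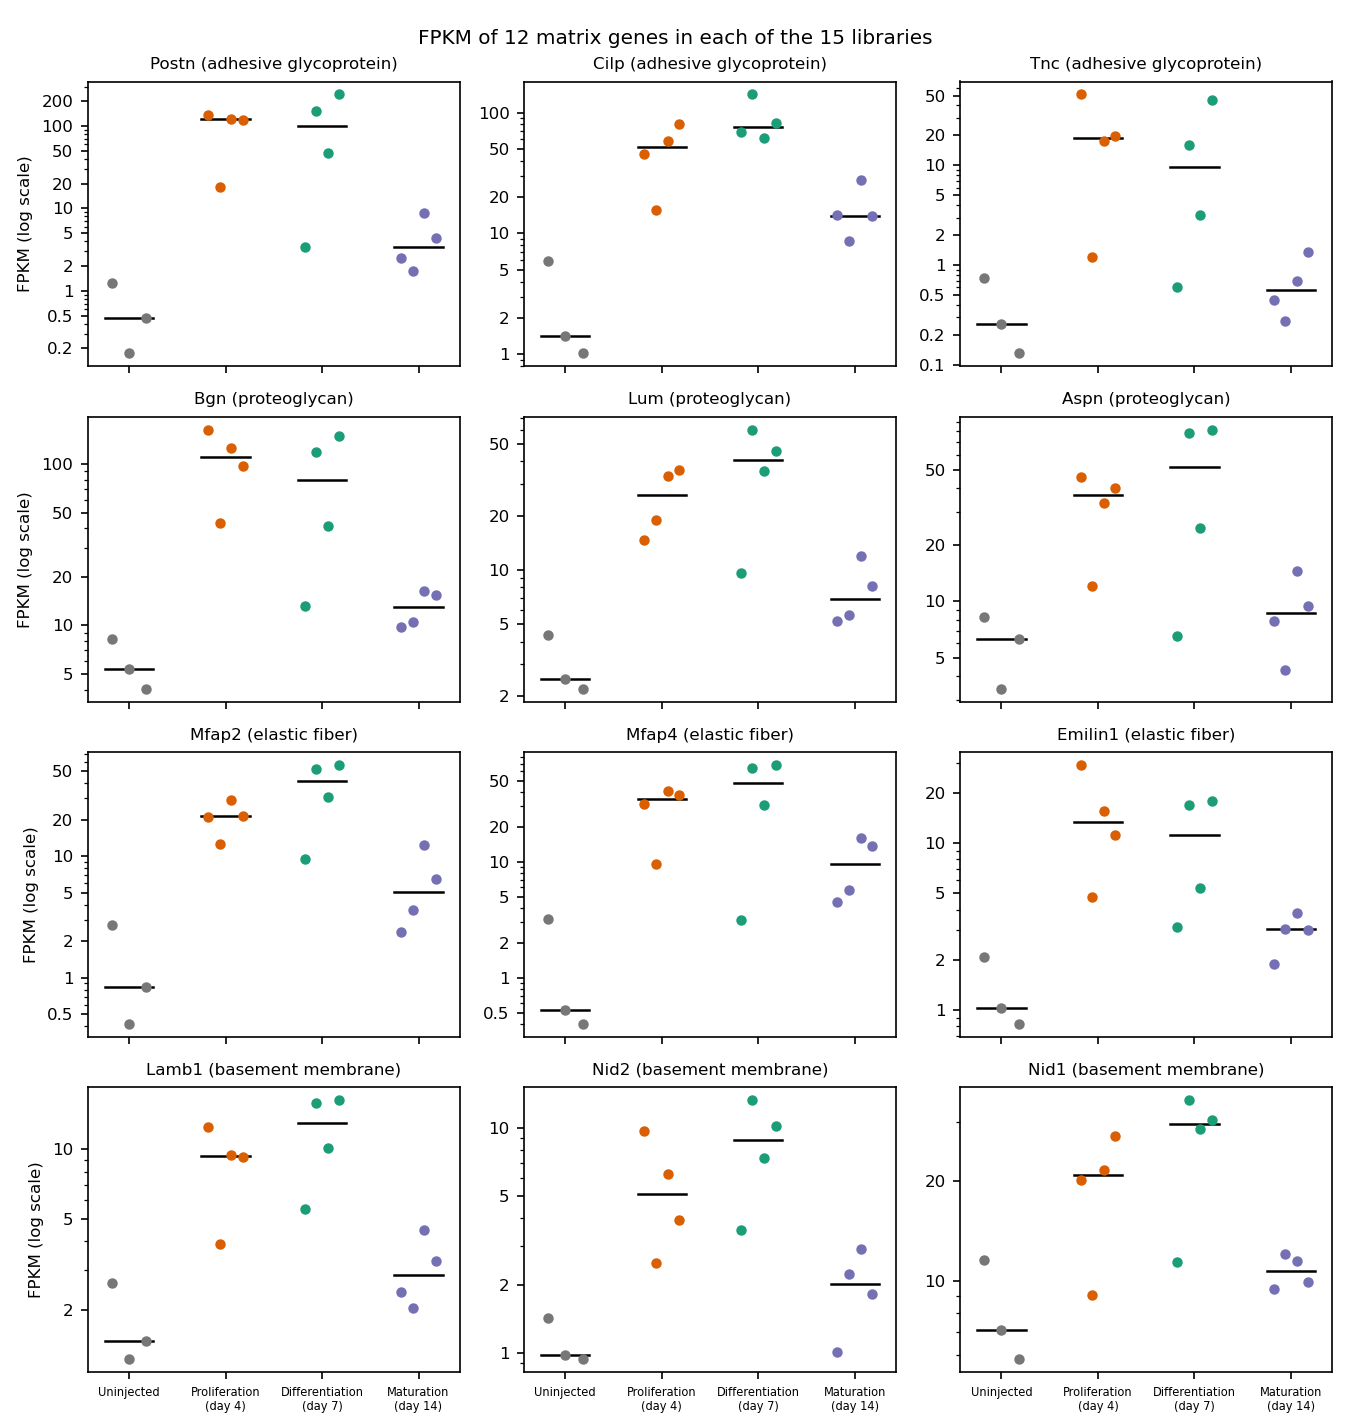
FPKM (log axis) of 12 matrix genes in each of the 15 libraries, by group, with a line at the group median. All injected Postn and Cilp values lie above the Uninjected ones, and Differentiation Stage replicate 1 is the lowest of its stage for each of the 12 but Cilp.

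Among the 8 proteoglycans, 5 were higher at the Proliferation Stage (Bgn, Lum, Ogn, Aspn and Vcan), 1 was lower (Fmod), and Dcn and Prelp were not called. Bgn, Lum and Vcan were higher at the Differentiation Stage too. The small leucine-rich proteoglycans in this group sit on collagen fibrils and set their spacing and diameter, and they did not move as 1 block.

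Bgn, for biglycan, which also signals to innate immune receptors when shed from the matrix, had 163, 43.1, 126 and 96.7 FPKM at the Proliferation Stage, against 8.23, 5.39 and 4.06 FPKM in Uninjected libraries. The lowest Proliferation Stage value was over 5 times the highest Uninjected value. Bgn had 13.1, 118, 41.4 and 148 FPKM at the Differentiation Stage and 9.79, 10.6, 16.2 and 15.5 FPKM at the Maturation Stage, all above the Uninjected range. The log2 fold change was 3.97 ± 0.46 at the Proliferation Stage (adjusted p = 0.000811, limma), 3.19 ± 0.75 at the Differentiation Stage (adjusted p = 0.0159) and 1.10 ± 0.26 at the Maturation Stage (adjusted p = 0.153).

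Dcn encodes decorin, the closest relative of biglycan and a ligand of TGF-β and of type I collagen. Dcn had 16.8, 32.9, 27.5 and 42.0 FPKM at the Proliferation Stage, against 32.3, 22.7 and 24.2 FPKM in Uninjected libraries. Dcn had 12.2, 60.5, 35.4 and 34.1 FPKM at the Differentiation Stage and 22.7, 32.0, 36.9 and 26.9 FPKM at the Maturation Stage. All 3 stages overlapped the Uninjected range, and the 95% interval of the log2 fold change ran from -0.64 to 0.86 at the Proliferation Stage, from -0.82 to 1.29 at the Differentiation Stage and from -0.30 to 0.61 at the Maturation Stage. The ratio of Bgn to Dcn within a library, which does not depend on how libraries are scaled to each other, was 9.72, 1.31, 4.57 and 2.30 at the Proliferation Stage and 1.07, 1.96, 1.17 and 4.33 at the Differentiation Stage, against 0.254, 0.237 and 0.168 in Uninjected libraries. At the Maturation Stage it was 0.431, 0.330, 0.439 and 0.575. Biglycan FPKM thus exceeded decorin FPKM in all 8 libraries of the first 2 stages and in none of the other 7. At each of the 3 stages the ratios lay wholly above the Uninjected ones. This gave the smallest p the exact permutation test allows (0.0286 of the log2 ratio, 2-sided). Adjusted over 9 pair comparisons it was 0.0515, which did not pass 0.05.

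Lum, for lumican, had 14.7, 18.9, 33.0 and 35.8 FPKM at the Proliferation Stage, against 4.37, 2.48 and 2.19 FPKM in Uninjected libraries. Lum had 9.63, 59.9, 35.5 and 45.6 FPKM at the Differentiation Stage and 5.21, 5.62, 11.9 and 8.18 FPKM at the Maturation Stage. No injected library overlapped the Uninjected range. The log2 fold changes were 2.85 ± 0.36, 3.23 ± 0.56 and 1.21 ± 0.31 at the 3 stages in order (adjusted p = 0.00124, 0.0052 and 0.179, limma).

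Aspn, for asporin, an aspartate-rich relative of decorin, had 45.7, 12.1, 33.4 and 40.1 FPKM at the Proliferation Stage, against 8.21, 3.44 and 6.29 FPKM in Uninjected libraries. Aspn had 6.58, 78.9, 24.7 and 81.7 FPKM at the Differentiation Stage and 7.88, 4.31, 14.5 and 9.42 FPKM at the Maturation Stage. Only the Proliferation Stage was clear of the Uninjected range, with a log2 fold change of 2.28 ± 0.48 (adjusted p = 0.0112, limma). The Differentiation Stage difference of 2.42 ± 0.80 had an adjusted p of 0.0525, and 0.00284 without replicate 1. Ogn, for osteoglycin, had a log2 fold change of 1.55 ± 0.43 at the Proliferation Stage (adjusted p = 0.0318) that passed in 2 of 7 fits leaving out 1 library.

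Fmod encodes fibromodulin, a keratan sulfate proteoglycan abundant in tendon that binds growing collagen fibrils. Fmod had 10.5, 4.43, 5.71 and 5.93 FPKM at the Proliferation Stage, against 35.6, 11.6 and 13.2 FPKM in Uninjected libraries. The groups did not overlap, though 10.5 and 11.6 FPKM lie close together, and the log2 fold change was -1.41 ± 0.42 (adjusted p = 0.0384, limma; exact permutation p = 0.0286, 2-sided). This call was lost in 5 of 7 fits that left out 1 library, with log2 fold changes between -1.71 and -0.92. Fmod had 1.63, 114, 9.37 and 10.4 FPKM at the Differentiation Stage and 25.8, 54.6, 56.7 and 48.4 FPKM at the Maturation Stage. The value of 114 FPKM is from Differentiation Stage replicate 2, the library with the highest tendon marker sum, and the lowest value from replicate 1, with the lowest tendon sum of the stage (7.79 FPKM). Between groups the 2 measures did not always run together. Tendon sums were 15.5 to 35.9 FPKM at the Proliferation Stage, where Fmod was lower, against 5.92 to 8.91 FPKM in Uninjected libraries. They were 12.4 to 31.1 FPKM at the Maturation Stage. The part of tendon RNA in the Fmod values was not tested. Between stages, Fmod was higher at the Maturation Stage than at the Proliferation Stage (log2 fold change 2.72 ± 0.83, adjusted p = 0.0234), with no overlap. Prelp, for a heparin-binding proteoglycan of basement membrane borders, averaged 7.31 ± 0.817, 3.64 ± 2.04 and 5.20 ± 0.650 FPKM at the 3 stages in order (SD, n = 4 each) against 4.84 ± 2.45 FPKM in Uninjected libraries (SD, n = 3) and was not called.

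Vcan, for versican, a large hyaluronan-binding proteoglycan of provisional matrix, was the lowest of this group. It averaged 2.27 ± 1.30 FPKM at the Proliferation Stage and 1.80 ± 1.28 FPKM at the Differentiation Stage (SD, n = 4 each), against 0.0835 ± 0.0354 FPKM in Uninjected libraries (SD, n = 3). Both differences passed (log2 fold changes 2.10 ± 0.41 and 1.74 ± 0.52 with the 0.5 FPKM offset, which the Uninjected level lies below). No Uninjected library reached the filter of 0.5 FPKM, so Vcan was tested only through the injected libraries in which it was high. Its calls are part of the counts of higher genes given here, and are weak support for them. The Differentiation Stage call of Vcan held in 1 of the 4 fits without 1 library in which it could be tested (adjusted p up to 0.0958, limma), and was lost with no filter and with quantile normalization. At the Maturation Stage Vcan was too low to be tested, at 0.100 to 0.345 FPKM.

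Of the 10 elastic fiber genes, 7 were higher at the Proliferation Stage (Fbn1, Eln, Emilin1, Mfap2, Mfap4, Fbln1 and Efemp2) and 6 of the 9 tested at the Differentiation Stage (Eln, Emilin1, Mfap2, Mfap4, Fbln2 and Efemp2). Elastic fibers are built on microfibrils of fibrillin and microfibril-associated proteins, onto which elastin is laid with the help of fibulins. The median log2 fold change of the group was 2.07 and 1.54 at these stages and 0.32 at the Maturation Stage.

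Mfap2 encodes a microfibril protein that binds fibrillin and TGF-β. Mfap2 had 21.1, 12.5, 29.1 and 21.6 FPKM at the Proliferation Stage, against 2.72, 0.418 and 0.844 FPKM in Uninjected libraries. Mfap2 had 9.46, 52.4, 30.7 and 56.2 FPKM at the Differentiation Stage and 2.39, 3.59, 12.4 and 6.48 FPKM at the Maturation Stage. The first 2 stages were clear of the Uninjected range, and the Maturation Stage overlapped it by 1 library, replicate 1. The log2 fold changes were 3.71 ± 0.44, 4.30 ± 0.64 and 1.85 ± 0.57 at the 3 stages in order (adjusted p = 0.000935, 0.00302 and 0.242, limma).

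Mfap4, a microfibril-associated glycoprotein that binds elastin and integrins, had 31.7, 9.63, 40.7 and 37.5 FPKM at the Proliferation Stage, against 3.21, 0.526 and 0.399 FPKM in Uninjected libraries. Mfap4 had 3.16, 64.8, 31.0 and 68.1 FPKM at the Differentiation Stage and 4.52, 5.65, 16 and 13.6 FPKM at the Maturation Stage. Only Differentiation Stage replicate 1, at 3.16 FPKM, fell inside the Uninjected range. The log2 fold change was 4.15 at both early stages (SE 0.62 and 1.00, adjusted p = 0.00266 and 0.0174, limma), and 2.61 ± 0.59 at the Maturation Stage (adjusted p = 0.146).

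Emilin1, an elastin microfibril interface protein, had 29.3, 4.79, 15.5 and 11.2 FPKM at the Proliferation Stage, against 2.08, 1.02 and 0.828 FPKM in Uninjected libraries. Emilin1 had 3.14, 16.8, 5.39 and 17.8 FPKM at the Differentiation Stage and 1.88, 3.08, 3.81 and 3.02 FPKM at the Maturation Stage. The early stages did not overlap the Uninjected range, with log2 fold changes of 2.92 ± 0.53 and 2.39 ± 0.58 (adjusted p = 0.00648 and 0.0173, limma).

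The fibrillin genes differed in level. Fbn1, the main fibrillin of adult microfibrils, had 20.7, 4.23, 13.8 and 14.5 FPKM at the Proliferation Stage, against 3.66, 1.63 and 0.653 FPKM in Uninjected libraries (log2 fold change 2.48 ± 0.57, adjusted p = 0.0162, limma). Fbn1 had 2.11, 9.12, 6.07 and 9.04 FPKM at the Differentiation Stage and 1.62, 1.37, 2.56 and 2.30 FPKM at the Maturation Stage. Its level was above every Uninjected library only at the Proliferation Stage. An annotated gene on the opposite strand, Gm9913, covers 20.1% of the exonic bases of Fbn1, and whether the counting used strand is not given in the sources used here. Of the 15 matrix genes with such overlap, no other exceeded 10%. Fbn2, the fibrillin of embryonic microfibrils, stood at 0 in each of the 3 Uninjected libraries. It had 1.69, 0.0667, 0.592 and 0.551 FPKM at the Proliferation Stage, 0.0510, 1.73, 0.448 and 1.41 FPKM at the Differentiation Stage, and 0, 0, 0.0871 and 0.193 FPKM at the Maturation Stage. All 8 libraries of the first 2 stages held some Fbn2 fragments and 2 of 4 did at the Maturation Stage, but the gene passed the filter on low values only at the Proliferation Stage and was not called there (adjusted p = 0.0724, limma).

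Eln, for elastin, averaged 15.9 ± 6.91 FPKM at the Proliferation Stage, 11.1 ± 3.06 FPKM at the Differentiation Stage and 9.18 ± 1.87 FPKM at the Maturation Stage (SD, n = 4 each), against 3.73 ± 1.03 FPKM in Uninjected libraries (SD, n = 3). All 12 injected libraries were above the Uninjected ones, whose highest value was 4.93 FPKM. The Maturation Stage log2 fold change of 1.2 ± 0.22 had the smallest unadjusted p of the matrix genes at that stage (0.000394), and an adjusted p of 0.136 (limma; exact permutation p = 0.0286, 2-sided). Among the fibulins, which join basement membranes and elastic fibers, Fbln1 was higher at the Proliferation Stage (1.73 ± 0.23) and Fbln2 at the Differentiation Stage (1.04 ± 0.28, passing in 3 of 7 fits that left out 1 library). Efemp2, the fibulin needed for elastin cross-linking in mice, was higher at both (2.30 ± 0.32 and 1.95 ± 0.38), and Fbln5 was called at neither (0.65 ± 0.27 and 0.83 ± 0.29, adjusted p = 0.0959 and 0.0593).

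**Figure D3:**
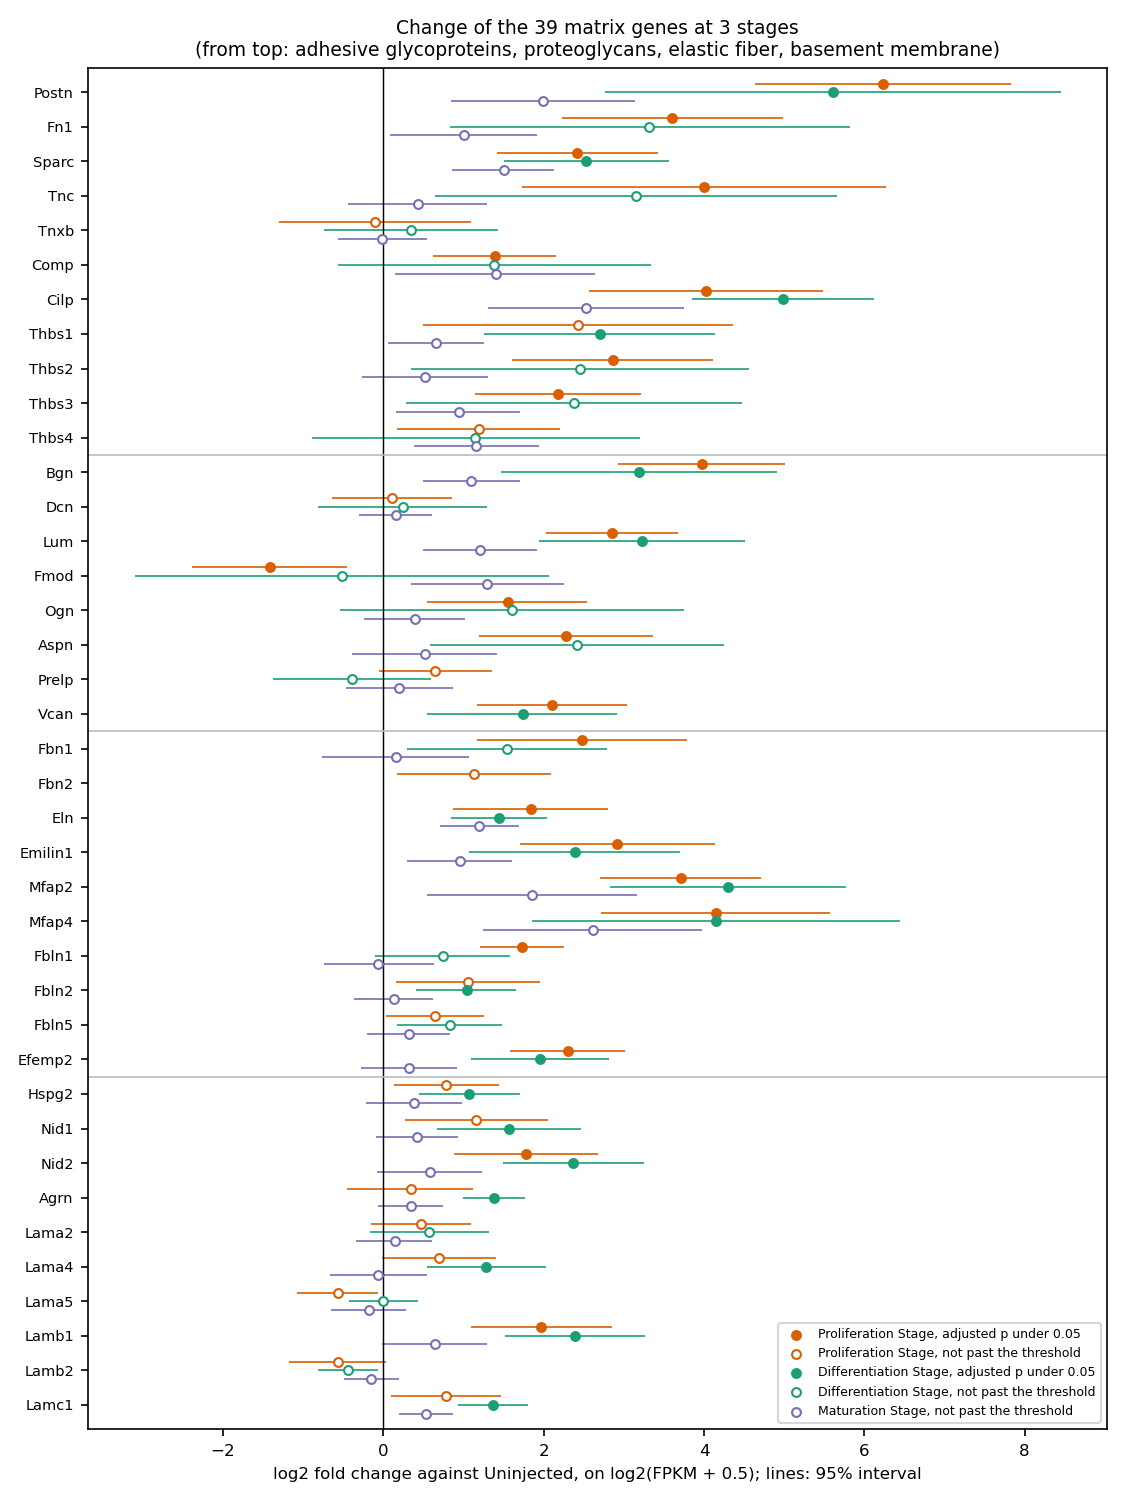
Log2 fold change against Uninjected of each of the 39 genes at each stage, on log2(FPKM + 0.5), with the 95% interval as a line and filled points where the adjusted p was under 0.05. The genes run from adhesive glycoproteins at the top to basement membrane at the bottom, filled points reach 6.23 for Postn, and the only filled point left of 0 is Fmod at the Proliferation Stage.

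The 10 basement membrane genes had more calls at the Differentiation Stage than at the Proliferation Stage. At the Proliferation Stage 2 were higher than in Uninjected libraries (Nid2 and Lamb1), and at the Differentiation Stage 7 were (Hspg2, Nid1, Nid2, Agrn, Lama4, Lamb1 and Lamc1). The Proliferation Stage count, 2 of 10, lay at the share of all tested genes called higher (20.1%), while that share was 17.0% at the Differentiation Stage. Their median log2 fold change was 0.74 at the Proliferation Stage, 1.32 at the Differentiation Stage and 0.36 at the Maturation Stage. The summed level of 6 endothelial markers was also highest at the Differentiation Stage, at 114 to 172 FPKM against 58.9 to 98.1 FPKM in Uninjected libraries, and was 40.4 to 55.3 FPKM at the Proliferation Stage. Vessels carry basement membrane too, and the part of endothelial RNA in these values was not tested.

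Lamb1 encodes the laminin β1 chain, found in the laminins of most basement membranes. Lamb1 had 12.5, 3.88, 9.44 and 9.26 FPKM at the Proliferation Stage, against 2.61, 1.22 and 1.47 FPKM in Uninjected libraries. Lamb1 had 5.5, 15.9, 10.1 and 16.3 FPKM at the Differentiation Stage and 2.40, 2.05, 4.45 and 3.27 FPKM at the Maturation Stage. The early stages were clear of the Uninjected range, with log2 fold changes of 1.97 ± 0.38 (adjusted p = 0.00832, limma) and 2.39 ± 0.38 (adjusted p = 0.00366), and both calls held in each fit that left out 1 library. The Maturation Stage overlapped the Uninjected range (0.64 ± 0.29, adjusted p = 0.391).

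Lamb2 encodes the laminin β2 chain, the β chain concentrated at the neuromuscular junction. Lamb2 had 15.4, 27.7, 26.0 and 28.1 FPKM at the Proliferation Stage, against 36.4, 35.4 and 34.4 FPKM in Uninjected libraries. Lamb2 had 24.8, 28.1, 29.5 and 22.2 FPKM at the Differentiation Stage and 32.4, 38.6, 30.5 and 26.9 FPKM at the Maturation Stage. All 8 libraries of the first 2 stages were below all Uninjected ones (exact permutation p = 0.0286 at each stage, 2-sided), but limma did not call the differences (log2 fold changes -0.57 ± 0.26 and -0.44 ± 0.17, adjusted p = 0.125 and 0.0796), and the direction depended on the scaling of the libraries. With each library rescaled to an equal FPKM total, the Lamb2 differences were 0.31 and 0.13, where the median of all genes stood at 0.89 and 0.59, and Dcn was called higher at the Proliferation Stage (1.00, adjusted p = 0.0192 by limma). The ratio of Lamb1 to Lamb2 within a library was 0.814, 0.140, 0.363 and 0.329 at the Proliferation Stage and 0.222, 0.567, 0.343 and 0.736 at the Differentiation Stage, against 0.0718, 0.0346 and 0.0426 in Uninjected libraries. It did not overlap the Uninjected ratios at these stages (exact permutation p = 0.0571 and 0.0286, adjusted over 9 comparisons 0.0857 and 0.0515), and at the Maturation Stage, at 0.0530 to 0.146, it did.

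Nid2 and Nid1 encode the nidogens, which link laminin to type IV collagen. Nid2 had 9.68, 2.52, 6.27 and 3.89 FPKM at the Proliferation Stage, against 1.43, 0.978 and 0.938 FPKM in Uninjected libraries. Nid2 had 3.52, 13.3, 7.36 and 10.3 FPKM at the Differentiation Stage and 1.01, 2.24, 2.89 and 1.82 FPKM at the Maturation Stage. Neither early stage overlapped the Uninjected range, with differences on the log2 scale of 1.78 ± 0.39 (adjusted p = 0.0137, limma) and 2.37 ± 0.39 (adjusted p = 0.00391). Nid1 had 20.1, 9.04, 21.5 and 27.2 FPKM at the Proliferation Stage, against 11.6, 7.14 and 5.81 FPKM in Uninjected libraries. Nid1 had 11.4, 34.8, 28.7 and 30.3 FPKM at the Differentiation Stage and 9.43, 12, 11.5 and 9.90 FPKM at the Maturation Stage. Both early stages overlapped the Uninjected range through 1 library, replicate 2 at the Proliferation Stage and replicate 1 at the Differentiation Stage. The log2 fold change was 1.16 ± 0.39 (adjusted p = 0.0543, limma) at the Proliferation Stage and 1.57 ± 0.39 (adjusted p = 0.0198) at the Differentiation Stage.

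The laminin α chains set where a laminin is found. Lama2, the α2 chain of the muscle fiber basement membrane, had 2.09, 1.42, 2.94 and 3.17 FPKM at the Proliferation Stage, against 2.01, 1.31 and 1.34 FPKM in Uninjected libraries. Lama2 had 1.18, 3.69, 2.56 and 3.38 FPKM at the Differentiation Stage and 1.57, 2.22, 1.71 and 1.48 FPKM at the Maturation Stage. Each stage overlapped the Uninjected range, and the largest difference, 0.57 ± 0.33 at the Differentiation Stage, was not called (95% interval -0.17 to 1.32), though it reached 0.86 ± 0.23 (adjusted p = 0.0188, limma) without replicate 1. Lama4, the α4 chain of vessels and developing muscle, had 4.95, 1.96, 3.50 and 3.49 FPKM at the Proliferation Stage, against 2.73, 1.34 and 1.74 FPKM in Uninjected libraries. At the Differentiation Stage it had 3.07, 7.89, 4.50 and 6.85 FPKM, all above the Uninjected range, and at the Maturation Stage 1.30, 1.44, 2.13 and 2.42 FPKM. The Differentiation Stage difference was 1.28 ± 0.33 (adjusted p = 0.0204, limma), and passed in 3 of the 7 fits that left out 1 library. The ratio of Lama4 to Lama2 was 2.61, 2.14, 1.76 and 2.03 at the Differentiation Stage, against 1.36, 1.02 and 1.30 in Uninjected libraries (exact permutation p = 0.0286, adjusted 0.0515). At the Proliferation Stage it was 2.37, 1.38, 1.19 and 1.10 and overlapped them (p = 0.6, exact permutation test). Lama5, the α5 chain of vessels and the neuromuscular junction, averaged 2.62 ± 0.628, 4.09 ± 0.672 and 3.59 ± 0.891 FPKM at the 3 stages in order (SD, n = 4 each) against 4.10 ± 0.683 FPKM in Uninjected libraries (SD, n = 3), and was not called.

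**Figure D4:**
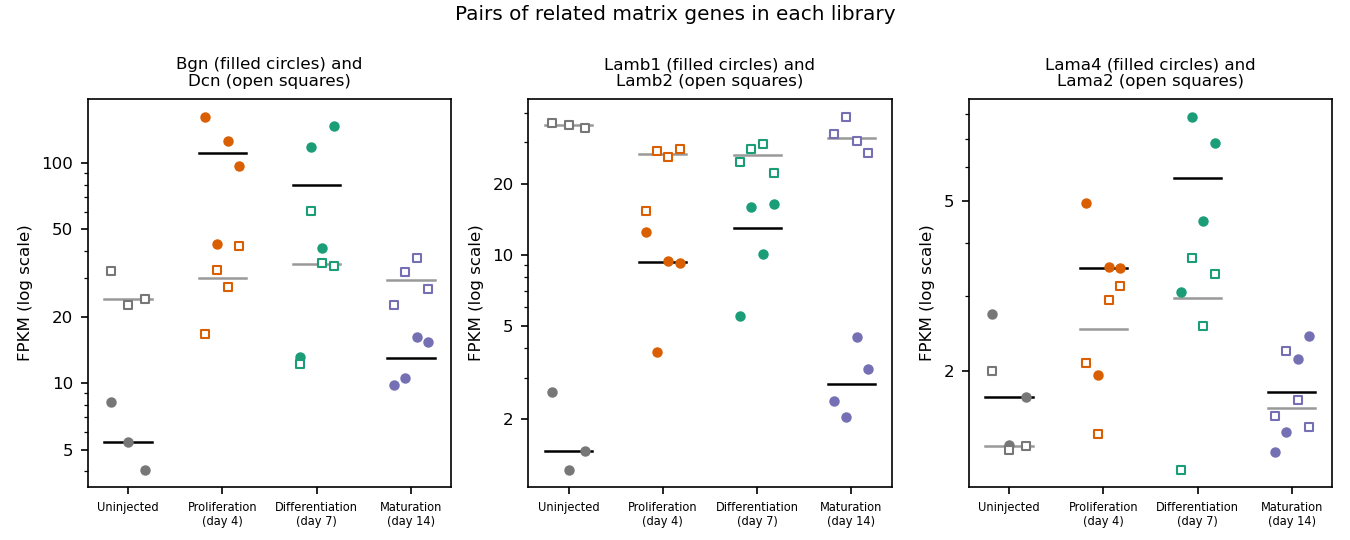
FPKM (log axis) of Bgn and Dcn, Lamb1 and Lamb2, and Lama4 and Lama2 in each library, filled circles for the first gene of each pair and open squares for the second, with lines at the group medians (black for the first gene, grey for the second). Bgn lies above Dcn in all 8 libraries of the Proliferation and Differentiation Stages and below it in the other 7, and Lamb1 stays below Lamb2 in every library.

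Lamc1, Agrn and Hspg2 were called at the Differentiation Stage and not at the Proliferation Stage. Without Proliferation Stage replicate 2, Lamc1 and Hspg2 were called higher at the Proliferation Stage too, as were Nid1 and Lama4, while Agrn was not. Lamc1, for the γ1 chain shared by most laminins, averaged 25.8 ± 4.23 FPKM at the Differentiation Stage (SD, n = 4) against 9.68 ± 1.47 FPKM in Uninjected libraries (SD, n = 3; log2 fold change 1.37 ± 0.19, adjusted p = 0.00237, limma). Agrn, for agrin, which clusters acetylcholine receptors at the neuromuscular junction, had 5.88, 6.64, 8.06 and 6.26 FPKM at the Differentiation Stage, against 2.61, 2.02 and 2.17 FPKM in Uninjected libraries (log2 fold change 1.38 ± 0.17, adjusted p = 0.00168). In Differentiation Stage replicate 1 these genes stood at 20.1 and 5.88 FPKM, above every Uninjected library, and both passed under each of the 19 alternatives run for that stage. Hspg2, for perlecan, averaged 27.9 ± 5.75 FPKM at the Differentiation Stage (SD, n = 4) against 13.5 ± 5.42 FPKM in Uninjected libraries (SD, n = 3; 1.07 ± 0.27, adjusted p = 0.0205) and passed in 4 of 7 fits that left out 1 library. Tested against the Proliferation Stage itself, the Differentiation Stage level passed for Agrn and not for Lamc1 (0.58, adjusted p = 0.205) or Hspg2 (0.29, adjusted p = 0.628).

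The interstitial and basement membrane genes are set side by side as a description, with no test between the gene groups. At the Proliferation Stage 20 of 29 interstitial genes and 2 of 10 basement membrane genes were higher, with median log2 fold changes of 2.28 and 0.74, beside 20.1% of all tested genes. At the Differentiation Stage 13 of 28 tested interstitial genes and 7 of 10 basement membrane genes were, with medians of 2.16 and 1.32 (17.0% of all genes), and at the Maturation Stage the medians were 0.94 and 0.36 with no call. In each library the median difference from the Uninjected mean was 1.09 to 2.90 for interstitial and 0.0435 to 0.922 for basement membrane genes at the Proliferation Stage. It was 0.268 to 3.32 and 0.676 to 1.51 at the Differentiation Stage, and 0.445 to 1.29 and -0.0021 to 0.361 at the Maturation Stage. In Uninjected replicate 1 the interstitial median (0.565) was above the basement membrane median (0.288). That gap of 0.277 was wider than the 0.208 of Maturation Stage replicate 2. Uninjected replicates 2 and 3 had the interstitial median below the other. The interstitial median was above the basement membrane median in 11 of 12 injected libraries. The exception was Differentiation Stage replicate 1, in which the interstitial median was 0.268 and the basement membrane median 0.676. Both were the lowest medians of their kind at that stage. Its endothelial sum of 172 FPKM was the highest of all libraries. Differentiation Stage replicate 2 had the highest basement membrane median of the stage, 1.51, with an endothelial sum of 127 FPKM. The part of endothelial RNA in these medians was not tested. Without Differentiation Stage replicate 1, 23 of 28 interstitial genes and 8 of 10 basement membrane genes were higher at that stage, where 21.2% of all tested genes then were. Without Proliferation Stage replicate 2 the Proliferation Stage counts were 25 of 29 and 6 of 10, where 25% of all tested genes then were higher.

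**Figure D5:**
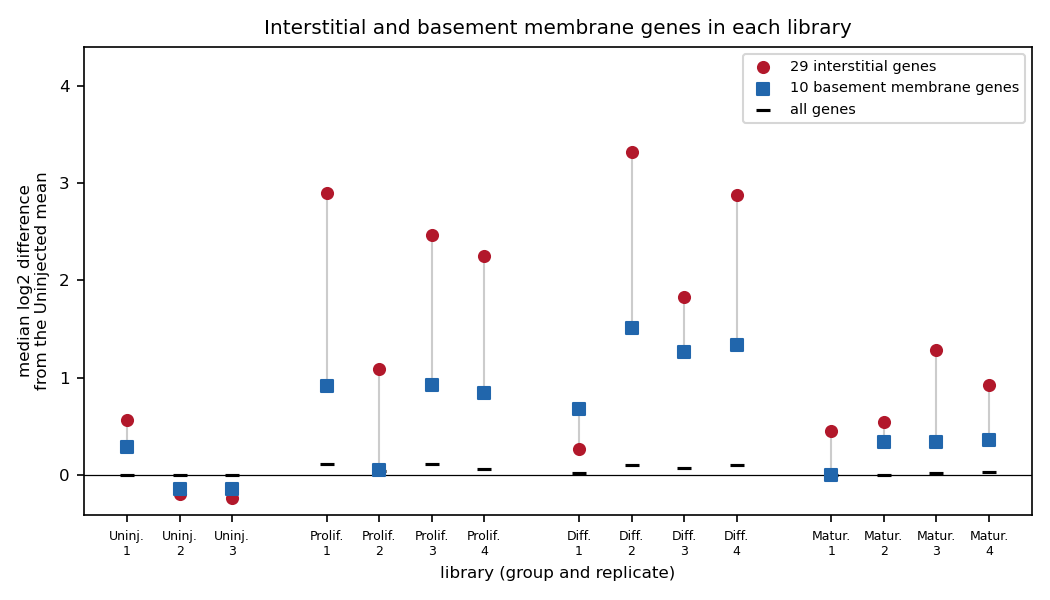
Median difference from the Uninjected mean on log2(FPKM + 0.5), in each library, for the 29 interstitial genes (circles), the 10 basement membrane genes (squares) and all genes (dashes). Circles lie above squares in all injected libraries but Differentiation Stage replicate 1 (0.268 against 0.676), and the gap is widest, at 1.99, in Proliferation Stage replicate 1. The circle also lies above the square in Uninjected replicate 1 (0.565 against 0.288).

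Between the injected stages, limma was fitted to all 15 libraries at once. At the Differentiation Stage 1 matrix gene was higher than at the Proliferation Stage and none lower, where 1.13% of 14576 tested genes were higher and 1.93% lower. That gene was Agrn, with 5.88, 6.64, 8.06 and 6.26 FPKM at the Differentiation Stage, against 3.86, 1.41, 4.87 and 2.78 FPKM at the Proliferation Stage (log2 fold change 1.04 ± 0.25, adjusted p = 0.0375, limma), and its call was lost in 8 of the 15 fits that left out 1 library. All 10 basement membrane genes had a positive difference (median 0.49), as did 13 of 29 interstitial genes (median -0.01), where the median of all tested genes was -0.02. The share of all genes with a positive difference, or highest at each stage, was not counted. These counts and those below are therefore a description. Leaving out Differentiation Stage replicate 1 turned the interstitial count to 22 of 29 and left the basement membrane count at 10 of 10. Leaving out Proliferation Stage replicate 2 gave 6 of 29 and 9 of 10. The mean log2 level of 8 basement membrane genes was highest at the Differentiation Stage and of none at the Proliferation Stage, while the interstitial genes were highest at the Proliferation Stage in 14 cases, the Differentiation Stage in 13 and the Maturation Stage in 2. Without Differentiation Stage replicate 1 these interstitial counts were 7, 21 and 1, so the order of the early stages in the interstitial genes rests on that library.

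At the Maturation Stage 13 matrix genes were lower than at the Differentiation Stage and none higher (9.54% of all tested genes were lower and 4.71% higher). Basement membrane genes made up 6 of them (Nid1, Nid2, Agrn, Lama4, Lamb1 and Lamc1), and the others were Postn, Cilp, Bgn, Lum, Vcan, Mfap2 and Efemp2. The median log2 fold change of the 39 genes was -1.22, against -0.08 over all genes. Postn had a log2 fold change of -3.62 ± 1.03 (adjusted p = 0.0336, limma), Cilp of -2.46 ± 0.53 (adjusted p = 0.0113) and Lamb1 of -1.75 ± 0.38 (adjusted p = 0.0113). Without Differentiation Stage replicate 1, 29 genes were lower, and without replicate 2, 5 were. The calls that held in every fit that left out 1 library were 5 (Cilp, Efemp2, Nid2, Lama4 and Lamb1). Against the Proliferation Stage, 16 matrix genes were lower at the Maturation Stage and 1, Fmod, higher (20.5% and 13.3% of all tested genes), and the median was -1.16. The 16 comprised 14 interstitial and 2 basement membrane genes (Nid2 and Lamb1). The share of lower genes in the basement membrane group was thus near that of all genes.

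No matrix gene was called against Uninjected muscle at the Maturation Stage itself, but 32 of the 37 tested had a positive log2 fold change. The median log2 fold change of all tested genes was 0.0014. The largest were Mfap4 (2.61 ± 0.59), Cilp (2.53 ± 0.53), Postn (1.99 ± 0.50), Mfap2 (1.85 ± 0.57) and Sparc (1.5 ± 0.28), with adjusted p of 0.146, 0.138, 0.174, 0.242 and 0.136 (limma). Levels of Cilp, Sparc, Postn, Bgn, Lum, Eln, Mfap4 and Lamc1 in the 4 Maturation Stage libraries were all above the 3 Uninjected ones. The share of all genes that did so was not counted, so this is a description and not a result about these genes. Only 3 of 12253 genes passed the threshold in this comparison.

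The genes called higher at both early stages were 13 (Bgn, Cilp, Efemp2, Eln, Emilin1, Lamb1, Lum, Mfap2, Mfap4, Nid2, Postn, Sparc and Vcan), and both comparisons use the same Uninjected libraries. The share of all genes called higher at both stages was not counted, so this overlap is a description and not a result about these genes. The matrix genes called at neither stage in either direction were 9 (Dcn, Fbln5, Fbn2, Lama2, Lama5, Lamb2, Prelp, Thbs4 and Tnxb). Removal of Differentiation Stage replicate 1 added Fn1, Tnc, Thbs2, Thbs3, Thbs4, Ogn, Aspn, Fbn1, Fbln1, Fbln5 and Lama2 to the Differentiation Stage calls, so 11 of the 18 genes not called at that stage were called without 1 library. Without Uninjected replicate 2, and likewise without replicate 3, 11 matrix genes were called at the Differentiation Stage, and the calls of Thbs1, Bgn, Vcan, Emilin1, Mfap4, Fbln2, Hspg2, Nid1 and Lama4 were lost. The Proliferation Stage calls of Tnc, Comp, Ogn, Fbn1, Eln and Nid2 were lost in the same fits. In every fit that left out 1 library, 16 of the 23 calls held at the Proliferation Stage and 11 of the 20 at the Differentiation Stage. Leaving out a library weakens the test for every gene. The shares of all genes whose calls were lost or held are not given here, so these losses are not particular to the matrix genes as far as shown.

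Levels also differed among the 39 genes by orders of magnitude. In Uninjected libraries Sparc (63.6 FPKM on average), Lamb2 (35.4), Thbs4 (27.3), Dcn (26.4) and Fmod (20.1) led, with SDs of 25.8, 0.971, 14.5, 5.18 and 13.4 FPKM (n = 3). Sparc lay above Lamb2 in every library, at 41.6 FPKM or more against at most 36.4 FPKM, while each other neighbouring pair in that order overlapped in range. At the Proliferation Stage Sparc (346), Bgn (107) and Postn (99.03) led, with SDs of 137, 50.5 and 54.4 FPKM (n = 4), and the ranges of Bgn and Postn overlapped while that of Sparc lay above both. Summed over the 39 genes, FPKM was 548 to 1552 at the Proliferation Stage, 457 to 2171 at the Differentiation Stage and 384 to 654 at the Maturation Stage, against 217 to 389 in Uninjected libraries.

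Other matrix genes and matrix receptors were read from lists of the same kind. Of 23 tested receptors, 10 were higher and 1 lower at the Proliferation Stage, and 9 higher and 1 lower at the Differentiation Stage (20.1% and 17.0% of all tested genes were higher at these stages). Those higher included Itga5 (log2 fold change 2.19 and 2.49 at the 2 stages), a fibronectin receptor chain, Itga7 (1.41 and 1.09), the laminin-binding integrin chain of muscle fibers, the hyaluronan receptor Cd44 (2.99 and 2.66) and the syndecan Sdc2 (1.75 and 2.26). The collagen-binding chain Itga1 was lower at the Proliferation Stage (-1.02). Dag1, for dystroglycan, was not called (0.44 and 0.25). Of 7 other basement membrane genes tested, 2 were higher at the Proliferation Stage, near the share of all genes, and 4 at the Differentiation Stage. Col4a1 and Col4a2, the main type IV collagen chains, averaged 130 and 87.4 FPKM at the Differentiation Stage, against 27.1 and 23.2 FPKM in Uninjected libraries (log2 fold changes 2.28 and 1.92), and both were higher at the Differentiation than at the Proliferation Stage (1.41 and 1.27, adjusted p = 0.0146 and 0.00947, limma). Of other glycoproteins and proteoglycans, 14 of 30 tested were higher and 1, Chad, lower (-2.31) at the Proliferation Stage, and 10 of 29 higher at the Differentiation Stage. Spp1, for osteopontin, which macrophages also make, had 368, 14.2, 56.9 and 40.7 FPKM at the Proliferation Stage, against 0.998, 0.307 and 0.775 FPKM in Uninjected libraries (log2 fold change 5.70, adjusted p = 0.00367). Its highest value was in replicate 1, the library with the highest macrophage sum (2703 FPKM), and the part of macrophage RNA in it was not tested. No gene of the 3 lists was called at the Maturation Stage.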

How the data were processed

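RNA from 15 libraries (4 per stage and 3 Uninjected) was read from poly-A selected, paired-end NEBNext Ultra libraries run on a NovaSeq instrument. The authors deposited FPKM per gene in 3 stage tables, which hold the same Uninjected values, for mouse build mm10 per the labels. For the aligner, the counting tool and its annotation, the entry is: not given in the sources used here. Using GENCODE M21 exon lengths, 90.4% to 95.0% of low values (up to 50 fragments) came out as whole fragments within 0.01. FPKM were compared as deposited, and the scaling between libraries followed median-ratio size factors within 2.48%. Columns of the authors' own fold changes and p-values were not used, and no per-sample column was left unmapped. A list of selected genes and a protein table were not used here.

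Genes that reached 0.5 FPKM in 3 or more libraries (of 7 for a stage against Uninjected, of 15 between stages) were fitted with limma 3.58.1 (trend and robust, statmod 1.5.0) in R 4.3.3 on log2(FPKM + 0.5), with Benjamini-Hochberg adjustment over all tested genes at 0.05. A gene below 0.5 FPKM in Uninjected libraries could pass this filter through the injected libraries alone, as Vcan and Fbn2 did. Single values were tested by exact permutation over all splits in Python 3.11.15 with numpy 2.4.6. Intervals of the model cover the spread between these samples, which may be technical in part, since the labels name no culture or litter. The fit was tested on simulated data. All 39 genes are named. Values in every library are given for the 3 largest changes of each role among called genes of at least 5 FPKM, for genes called lower at any stage or called at the Maturation Stage, and for the pairs Bgn and Dcn, Lamb1 and Lamb2, Fbn1 and Fbn2, and Lama2 and Lama4. Other genes given in full were chosen after their values were seen. The genes and lists were chosen with earlier results of these data known. The alternatives covered the pseudocount, the filter, the scaling, the test, the replicate block and each library left out. Leaving out Proliferation Stage replicate 2 with Differentiation Stage replicate 1, and Differentiation Stage replicates 1 and 2, was chosen after seeing the data.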

Additional observations from a re-analysis of the deposited data

Results flagged for a closer look

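In 4 of the 117 stage groups of 4 libraries, 1 library lay far from the others by Dixon's test, which chance alone does in about 1 in 20 groups. In Proliferation Stage replicate 2, Postn had 18.4 FPKM where the other libraries of that stage had 117 to 138 FPKM, and Eln had 5.92 FPKM where the others had 17.7 to 21.8 FPKM. In Proliferation Stage replicate 1, the library with the lowest myofiber marker sum (4338 FPKM), Lamb2 had 15.4 FPKM where the others had 26.0 to 28.1 FPKM. In Maturation Stage replicate 3, Vcan had 0.345 FPKM where the others had 0.100 to 0.120 FPKM. The part of the marker levels in these values was not tested.

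Stages also differed from each other when the difference itself was tested with limma. Agrn was 1.04 higher on the log2 scale at the Differentiation than at the Proliferation Stage. At the Maturation Stage, set against the Differentiation Stage, the interstitial genes differed by -3.62 (Postn), -2.46 (Cilp), -2.45 (Mfap2), -2.09 (Bgn), -2.02 (Lum), -1.63 (Efemp2) and -1.55 (Vcan). In the same comparison the basement membrane genes differed by -1.79 (Nid2), -1.75 (Lamb1), -1.34 (Lama4), -1.15 (Nid1), -1.04 (Agrn) and -0.84 (Lamc1).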

How the results depend on the processing

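No result reversed in direction with its call, and the causes of the shifts below were not tested. With each library rescaled to an equal FPKM total, the median of all genes stood at 0.89 at the Proliferation Stage and 0.59 at the Differentiation Stage. The number of matrix genes higher than in Uninjected libraries at the Proliferation Stage was then 34 in place of 22, and 35.8% of all genes were higher and 1.28% lower. The interstitial median at that stage was 3.37 and the basement membrane median 1.65 (2.48 and 0.76 above the median of all genes), and the basement membrane median at the Differentiation Stage was 1.95. The equal-variance test on FPKM called 0 higher at the Proliferation Stage and 2 at the Differentiation Stage, and 2 lower at the Maturation than at the Differentiation Stage and 1 lower than at the Proliferation Stage. The share of all genes called by the equal-variance test is not given here. The single lower call at the Proliferation Stage, Fmod, became 0 with no filter, rescaling, the equal-variance test or without the 2 libraries low in macrophage markers, and 2 with quantile normalization or 1 fit of all 15 libraries. Without those 2 libraries the counts were 31 higher at the Differentiation Stage, 30 lower at the Maturation than at the Differentiation Stage and 28 lower than at the Proliferation Stage. The last count was 28 with rescaling too, and the first of the Maturation counts was 8 with no filter. The Agrn call between the early stages became 0 with a pseudocount of 0.1 FPKM, no filter, rescaling, the replicate block, the equal-variance test, and without either pair of libraries. Fmod at the Maturation against the Proliferation Stage became 0 calls with rescaling and 2 with quantile normalization, and 1 gene was higher at the Maturation than at the Differentiation Stage without Differentiation Stage replicates 1 and 2.

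Leaving out each library in turn gave 16 to 31 higher and 0 to 1 lower at the Proliferation Stage, 11 to 31 higher and 0 lower at the Differentiation Stage, and 0 at the Maturation Stage. Between stages it gave 0 to 1 higher and 0 to 1 lower (Differentiation against Proliferation), 0 to 1 higher and 5 to 29 lower (Maturation against Differentiation), and 0 to 1 higher and 7 to 24 lower (Maturation against Proliferation). Interstitial medians ran over 2.09 to 2.55, 1.86 to 2.67 and 0.59 to 1.27 at the 3 stages in order, and basement membrane medians over 0.61 to 0.91, 1.19 to 1.47 and 0.19 to 0.54.

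Replicate numbers did not pair the samples, since none of 21 same-numbered pairs had a correlation of deviations over 0.1. With the replicate block, 23 genes were higher at the Proliferation Stage, 10 at the Differentiation Stage and 0 at the Maturation Stage, 0 were higher at the Differentiation than at the Proliferation Stage, and 8 were lower at the Maturation than at the Differentiation Stage. Levels under 0.5 FPKM, such as those of Vcan and Fbn2 in Uninjected libraries, rest on few fragments, and limit how far their fold changes can be read.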
